A study of Mus musculus with 17 samples.

Results

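The 9 genes described here are used as markers of cell division and of the birth of new neurons in the adult hippocampus. They were Top2a, Mki67, Cdk1 and Ccna2 (cell division), Eomes and Igfbpl1 (neurogenic progenitors) and Neurod1, Sox11 and Dcx (newborn neurons), and they were taken by symbol from a table of 24498 gene symbols. The genes were chosen by their values in the female KO Tau and WT Tau libraries, where Top2a ranked next after Acss2, so every value of that comparison is given as a description, with no test. Gene expression was measured by RNA sequencing of poly(A) RNA from bulk dorsal hippocampus of mice that were wild type (WT) or lacked ACSS2 (KO), the enzyme acetyl-CoA synthetase 2, which turns acetate into acetyl-CoA. The mice had been injected intracranially when 6 months old, into the dorsal hippocampus, with either PBS or tau that had been isolated from brains of people with Alzheimer's disease (Tau). The paper places its molecular work 6 months after the injection, so the mice were older than at injection when sampled. Of the 17 libraries, 12 came from males, with 3 in each of WT PBS, KO PBS, WT Tau and KO Tau, and 5 from females, with 2 in WT Tau and 3 in KO Tau. KO and WT animals came from separate homozygous crosses, no group received an unrelated protein in place of tau, and no female PBS libraries were analysed here. Each library goes by its label's number. The numbers of all female libraries begin with 3 and those of all male libraries with 7, so sex and whatever else that numbering stands for cannot be told apart.

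In the adult dentate gyrus, stem cells of the subgranular zone give rise to dividing progenitors, which become immature granule neurons and then join the granule cell layer. Dividing cells make the proteins of the cell cycle only for a short time, Eomes marks the intermediate progenitors, and Sox11 and Dcx mark the young neurons that follow. The process is known to fall steeply with age in mice. Microglia, endothelial cells and oligodendrocyte precursors also divide in the adult brain and use the same cell cycle genes. In bulk tissue, fewer cells of a type and less RNA per cell cannot be told apart.

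The promoters of 3 cell division genes are shown because such promoters are known to carry CCAAT boxes, bound by the factor NF-Y, and the cell cycle genes homology region, TTTGAA. Each sequence is the 250 bases before the RefSeq start (GRCm38.p6), read 5′ to 3′ on the gene's strand, with matches to CCAAT or its reverse complement ATTGG and to TTTGAA or its reverse complement TTCAAA in capitals. The windows are chr11:99024190-99024439 (minus strand) for Top2a, chr7:135716380-135716629 (minus strand) for Mki67 and chr10:69352913-69353162 (minus strand) for Cdk1.
Top2a: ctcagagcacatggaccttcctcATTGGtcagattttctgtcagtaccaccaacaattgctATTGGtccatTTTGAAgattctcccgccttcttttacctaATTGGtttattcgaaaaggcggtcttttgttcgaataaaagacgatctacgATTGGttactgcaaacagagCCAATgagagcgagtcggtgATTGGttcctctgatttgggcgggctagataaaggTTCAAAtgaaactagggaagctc
Mki67: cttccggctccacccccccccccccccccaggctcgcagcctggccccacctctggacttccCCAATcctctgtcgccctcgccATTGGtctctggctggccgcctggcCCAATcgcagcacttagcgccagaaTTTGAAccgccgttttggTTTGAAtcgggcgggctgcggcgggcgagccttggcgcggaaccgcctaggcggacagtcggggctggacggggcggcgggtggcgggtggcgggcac
Cdk1: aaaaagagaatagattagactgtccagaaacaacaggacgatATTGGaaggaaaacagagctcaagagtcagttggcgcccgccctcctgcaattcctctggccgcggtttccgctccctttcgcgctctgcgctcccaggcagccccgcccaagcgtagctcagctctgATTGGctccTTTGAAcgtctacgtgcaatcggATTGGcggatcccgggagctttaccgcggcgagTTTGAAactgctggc
The Top2a window held 6 matches to CCAAT and 2 to TTTGAA, and the Mki67 and Cdk1 windows each held 3 and 2. Matches of the CCAAT and TTTGAA letters did not overlap in these windows. Among 32851 RefSeq windows of the same length, 33.8% held CCAAT at least once, 16.0% held TTTGAA at least once, and 0.381% held at least 3 matches to CCAAT with at least 1 to TTTGAA. Of the other genes with an entry, Eomes had 2 matches to CCAAT and none to TTTGAA, Sox11 had 1 of each, Dcx had 1 match to CCAAT in the window of the more upstream of its starts and none in the other, and Neurod1 had none of either. For Eomes and Sox11, unlike the others, the bases just after the window did not match the start region of an annotated transcript. The place of these windows relative to the start is therefore less certain. Promoters were found for 7 of the 9 genes, and these matches describe the letters in the windows, not binding.

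Total counts ran from 14183131 to 22463635 per library, so that a count of 0 allowed a level of up to 0.134 to 0.212 CPM, the level of 3 counts (CPM is the count per 1000000 counts of the library). Acss2 stood between 3.07 and 8.81 CPM in the 9 KO libraries and between 44.0 and 54.6 CPM in the 8 WT libraries, so the genotype labels held in every library. The tissue sampled was less even. Male KO PBS 752 had the lowest summed level of 10 markers of mature dentate granule neurons (190 CPM, against 705 CPM in male KO PBS 751, the highest) and the highest of 8 markers of striatal neurons (305 CPM, against 35.6 to 110 CPM elsewhere). Male KO Tau 713 had 4084 CPM of 10 choroid plexus genes, and male WT PBS 791 had 299 CPM of 8 genes of cerebellar neurons, against 5.19 to 15.5 CPM in the other libraries. The cerebellar list was chosen after the data were seen. Markers of hippocampal pyramidal neurons summed to 1031 to 2767 CPM, of Cajal-Retzius cells to 40.4 to 123 CPM, of ependyma to 8.55 to 44.2 CPM and of blood cells to 2.94 to 86.8 CPM, with the 4 hemoglobin genes of that list at 0 in every library. Values without these libraries are given below beside Neurod1, Eomes and the gene lists, and were chosen after seeing the data for Eomes and the lists.

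Per length, Neurod1, Sox11 and Dcx, taken here as newborn neuron markers, were the most abundant of the 9, and the cell division genes were near the floor. Which cells these levels came from was not tested, and relations to markers of mature neurons are given below. Neurod1 averaged 7.43 RPKM (CPM per kilobase of exons) over the 17 libraries, Sox11 1.58 RPKM and Dcx 1.07 RPKM. Ccna2 averaged 0.204 RPKM, Igfbpl1 0.123, Mki67 0.119, Top2a 0.0830, Eomes 0.0390 and Cdk1 0.0389 RPKM. Of 19674 genes with a length, 30.1% stood higher than Neurod1 and 85.7% higher than Cdk1. In counts, Neurod1 had between 151 and 825 per library, Top2a between 5 and 49, and Cdk1 between 0 and 14. Cdk1 and Eomes did not pass the count filter, so 7 of the 9 genes were tested in the male libraries.

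**Figure D1:**
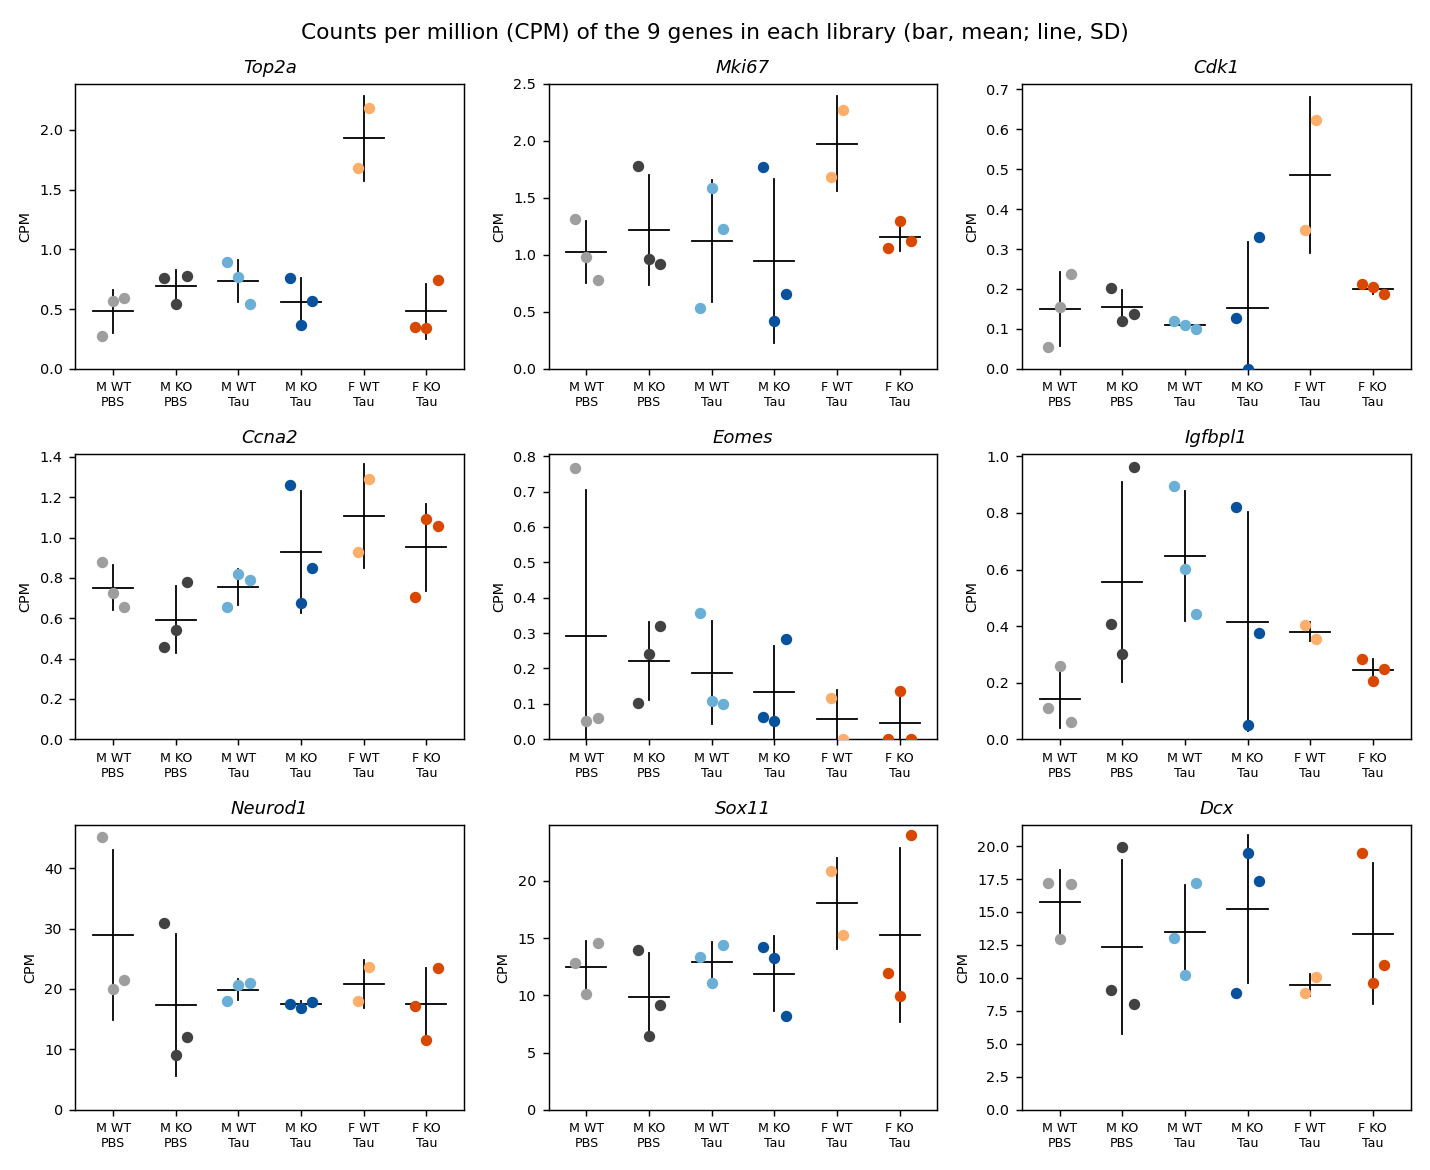
Level of each of the 9 genes in CPM (y axis, linear and from 0, own scale per panel) in the 17 libraries of 6 groups (x axis; M, male; F, female); points are libraries, the bar is the group mean and the line the SD. The 2 female WT Tau libraries stand above all other libraries for Top2a, at 1.68 and 2.18 CPM. For the other genes, most pairs of groups of the same sex overlap.

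Top2a encodes DNA topoisomerase II alpha, which untangles DNA as chromosomes replicate and separate. The gene lies at chr11:98992943-99024189 on the minus strand (GRCm38). Its level was 1.68 and 2.18 CPM in the female WT Tau libraries (29 and 49 counts) and 0.353, 0.342 and 0.746 CPM in the female KO Tau libraries (5, 5 and 12 counts). The 2 groups did not overlap, and the log2 fold change was −1.95 (SE 0.426), which ranked 2 of 15419 genes, after Acss2. This is the comparison from which Top2a was chosen, so the value only describes these 5 libraries. Markers of other cells moved between the same libraries: 9 of 10 genes of mature granule neurons were lower in female KO Tau (median log2 fold change −0.333), as were 7 of 7 tested genes of striatal neurons (−0.604), while 7 of 7 genes of pyramidal neurons (0.338) and 10 of 10 of choroid plexus (1.13) were higher. The summed levels of the granule, striatal and pyramidal markers overlapped between the groups, those of the choroid plexus genes did not (31.7 and 78.8 CPM against 85.6 to 386 CPM), and the part of these cells in the Top2a level was not tested. With each of the 5 left out in turn the log2 fold change ran from −2.37 to −1.71 and the rank from 8 to 201, the last without female WT Tau 341.

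The male libraries were not used in that choice, and Top2a was low in all 12 of them. It stood at 0.274, 0.568 and 0.597 CPM in male WT PBS and at 0.761, 0.544 and 0.778 CPM in male KO PBS. In the Tau groups it stood at 0.895, 0.767 and 0.541 CPM in male WT Tau and at 0.757, 0.365 and 0.565 CPM in male KO Tau. All these libraries lay below both female WT Tau libraries, and each pair of male groups overlapped. Male KO Tau differed from male WT Tau by a log2 fold change of −0.36 (SE 0.380, edgeR adjusted p = 0.937), and KO differed from WT over both injections by 0.11 (SE 0.271, adjusted p = 0.978). The difference between the female and the male values was not tested, because the female value chose the gene. From the highest to the lowest group mean the order was female WT Tau (1.93 ± 0.355 CPM, SD, n = 2), male WT Tau (0.734 ± 0.179, n = 3), male KO PBS (0.694 ± 0.130), male KO Tau (0.562 ± 0.196), female KO Tau (0.480 ± 0.231) and male WT PBS (0.480 ± 0.179). After the highest group, neighbours in this order differed by less than the larger of their SDs.

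The other cell division genes shared the female pattern only in part. Mki67 encodes the Ki-67 protein of cycling cells, which coats chromosomes in mitosis. It stood at 1.68 and 2.27 CPM in female WT Tau and at 1.06, 1.30 and 1.12 CPM in female KO Tau, without overlap, with a log2 fold change of −0.73 (SE 0.547). Cdk1, the kinase that drives entry into mitosis, had 6 and 14 counts in female WT Tau and 3, 3 and 3 in female KO Tau. Pooled over the libraries of a group this came to 0.503 CPM in female WT Tau (95% Poisson interval 0.307 to 0.777) and to 0.200 CPM in female KO Tau (0.0917 to 0.381), intervals that cover counting error only and that overlap. Ccna2, cyclin A2, the partner of the kinases of S phase and G2, overlapped: 0.926 and 1.29 CPM against 0.705, 1.09 and 1.06 CPM. In all, 4 of the 9 genes (Top2a, Mki67, Cdk1 and Igfbpl1) were lower in female KO Tau without overlap and 0 were higher, beside 10.3% of all genes tested that were lower and 5.75% that were higher in the same way. The genes were chosen from these same libraries, so this count cannot show an excess over that share. Cdk1 did not pass the count filter and is not among the genes tested.

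In the male libraries these genes had no common direction. Mki67 ranged from 0.776 to 1.32 CPM in male WT PBS, from 0.915 to 1.78 CPM in male KO PBS, from 0.537 to 1.59 CPM in male WT Tau and from 0.417 to 1.77 CPM in male KO Tau. Its range within each group was thus wider than the largest difference between the means of the male groups, and KO differed from WT over both injections by 0.02 on the log2 scale (SE 0.382, edgeR adjusted p = 0.997). Ccna2 was lowest on average in male KO PBS (0.593 ± 0.166 CPM, SD, n = 3) and highest among the male groups in male KO Tau (0.929 ± 0.301 CPM), a log2 fold change of 0.58 (SE 0.315, edgeR adjusted p = 0.66). Cdk1 had between 0 and 7 counts in every male library, and its pooled level was between 0.108 CPM in male WT Tau and 0.160 CPM in male KO Tau, with Poisson intervals that overlap.

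The wider cell cycle lists are first described in the female libraries. Of 30 genes of S phase and DNA replication, such as the Mcm helicase subunits, 28 were tested in the Tau libraries and 24 of them were lower in female KO Tau than in female WT Tau, with a median log2 fold change of −0.115. Of 44 genes of G2 and mitosis, 34 were tested and 24 were lower, with a median of −0.212, beside a median of −0.0102 over all genes tested. The lowest values were those of Pbk (−2.15, SE 0.769), a mitotic kinase, Hmmr (−1.62, SE 0.912), which acts at the spindle, Uhrf1 (−1.54, SE 0.570), which maintains DNA methylation at replication, and Cdca3 (−1.34, SE 0.575). The highest was that of Kif20a (0.72, SE 0.301), a kinesin of cell cleavage. These genes were measured in the libraries that chose Top2a, so they are no separate evidence. The summed level of the G2 and mitosis list was 239 and 196 CPM in female WT Tau and 165, 202 and 185 CPM in female KO Tau, which overlap. Anln, an actin-binding protein of cell cleavage that mature oligodendrocytes also make, was 27.6% to 59.3% of this sum in the 17 libraries, while 33 of the 44 genes had a median below 2 CPM. Without Anln, which was left out after its level was seen, the sum was 106 and 93.8 CPM in female WT Tau and 84.3, 82.5 and 97.8 CPM in female KO Tau, which overlap as well.

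In males, 26 genes of S phase and 30 of G2 and mitosis were tested and 0 of them passed an FDR of 0.05 in any of the 8 comparisons with edgeR. For KO against WT over both injections, 16 of 26 S phase genes were higher (median 0.0592) and 16 of 30 genes of G2 and mitosis were higher (median 0.0250), beside a median of 0.00392 over all genes tested, and 0 genes of both lists reached an unadjusted p under 0.05. With male WT PBS 791, male KO PBS 752 or male KO Tau 713 left out, the medians ran from 0.0247 to 0.0546 for S phase and from −0.0152 to 0.0356 for G2 and mitosis, the lowest of each without male KO PBS 752. The S phase genes with the smallest p among the higher were Mcm4 (0.21, SE 0.0982), Ung (0.31, SE 0.223) and Mcm5 (0.20, SE 0.154), and among the lower Orc1 (−0.46, SE 0.314), Mcm6 (−0.24, SE 0.246) and Gins2 (−0.27, SE 0.356). In the other list they were Incenp (0.42, SE 0.254), Kif4 (0.34, SE 0.222) and Racgap1 (0.28, SE 0.260), and Ccnb2 (−0.55, SE 0.300), Smc2 (−0.24, SE 0.156) and Tacc3 (−0.17, SE 0.116). The adjusted p was 0.945 or higher for each of these genes. Of 13 cell cycle inhibitors, 12 were tested, 0 passed the FDR, and 8 were higher in KO (median 0.0909), with Cdkn2c (0.28, SE 0.141), Btg2 (0.42, SE 0.261) and Cdkn1c (0.34, SE 0.262) ahead, while Trp53 (−0.07), Cdkn1b (−0.05) and Rb1 (−0.08) were below 0.

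**Figure D2:**
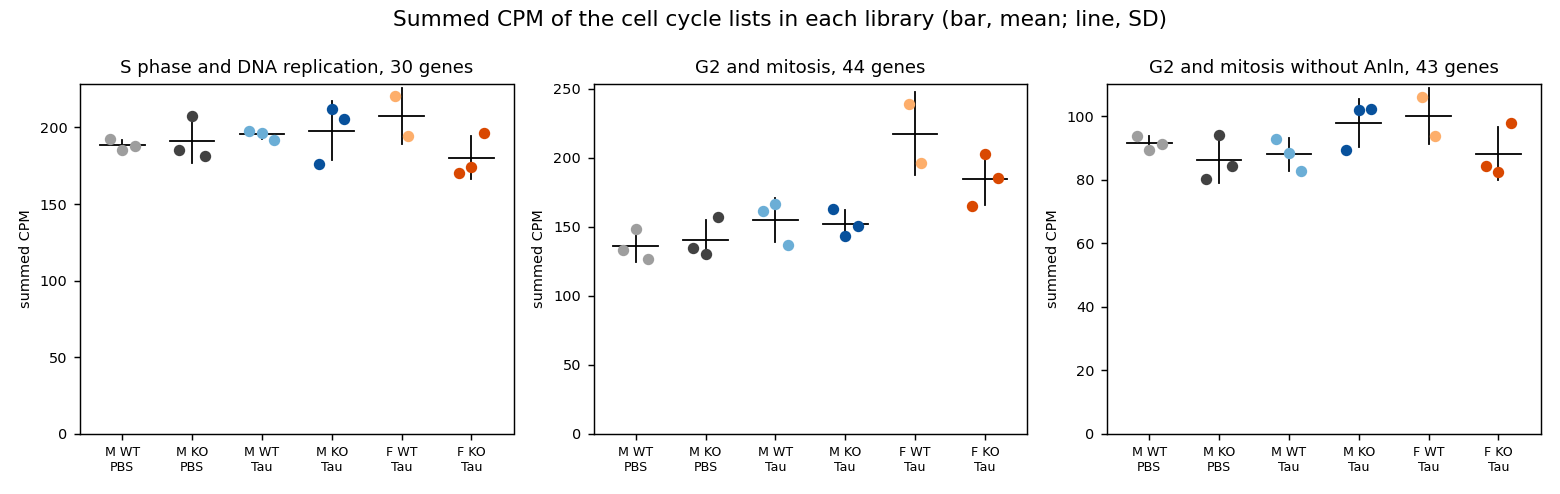
Summed CPM (y axis, linear and from 0) of 30 genes of S phase and DNA replication (left), of 44 genes of G2 and mitosis (middle) and of the latter without Anln (right) in the 17 libraries by group (x axis); points are libraries, the bar is the group mean and the line the SD. Female WT Tau 331 is the highest library of all 3 panels, at 220, 239 and 106 CPM.

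Among other cell types that divide, the oligodendrocyte precursors did not overlap between the female groups. The summed level of 8 markers of oligodendrocyte precursors was 186 and 182 CPM in female WT Tau and 148 to 160 CPM in female KO Tau, without overlap. Of all single genes tested, 10.3% were lower in the same way. The 10 microglial markers summed to 702 to 737 CPM in female WT Tau and to 612 to 734 CPM in female KO Tau, and the 10 endothelial markers to 369 to 480 CPM and to 343 to 439 CPM, so both overlapped. None of the markers of these 3 lists was at 0 in every library. In the male libraries the markers of oligodendrocyte precursors summed to 119 to 170 CPM, the microglial markers to 394 to 643 CPM and the endothelial markers to 167 to 348 CPM. The part of these cells in the levels of Top2a, Mki67 and Cdk1 was not tested.

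Among the genes of neurogenic progenitors, Igfbpl1 had the largest fold changes of the 7 genes tested in males and Eomes was near the floor. Igfbpl1 encodes an insulin-like growth factor binding protein-like protein found in progenitors and immature neurons. It had 2, 5 and 1 counts in male WT PBS and 8, 5 and 21 in male KO PBS, or 0.110, 0.258 and 0.0597 CPM against 0.406, 0.302 and 0.961 CPM. In male WT Tau it had 15, 11 and 9 counts (0.895, 0.603 and 0.443 CPM), and in male KO Tau 13, 1 and 8 counts (0.820, 0.0521 and 0.376 CPM). Male WT PBS was thus the lowest group, below male KO PBS and male WT Tau without overlap, as were 2.31% and 6.84% of all genes in these comparisons, while male KO Tau spanned nearly the whole range.

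The fitted log2 fold change of Igfbpl1 was 1.96 (SE 0.816) for male KO PBS against male WT PBS, with an unadjusted p of 0.0344 and an edgeR adjusted p of 0.999. For male WT Tau against male WT PBS it was 2.06 (SE 0.813), with an unadjusted p of 0.0269 and an edgeR adjusted p of 1. The genotype by treatment interaction, the difference between the genotype effects under Tau and under PBS, was −2.60 (SE 1.08), with an unadjusted p of 0.0333 and an edgeR adjusted p of 0.996. An unadjusted p under 0.05 was reached by 4.42%, 1.86% and 4.18% of all genes in these 3 comparisons. None of the values held after adjustment over 15098 genes. Without male KO PBS 753 the KO PBS value was 1.31, and without male WT PBS 792 it was 2.70. In the female libraries Igfbpl1 had 7 and 8 counts in WT Tau and 4, 3 and 4 in KO Tau, with pooled Poisson intervals of 0.211 to 0.623 CPM and 0.122 to 0.438 CPM.

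Eomes, the T-box factor of intermediate progenitors, had 51 counts over all 17 libraries, and 14 of them lay in male WT PBS 791. The other male libraries had between 1 and 7 counts, and the female libraries had 2 and 0 in WT Tau and 0, 2 and 0 in KO Tau. Pooled, male WT PBS stood at 0.294 CPM (95% Poisson interval 0.168 to 0.478), and at 0.0554 CPM (0.00671 to 0.200) from 2 counts without male WT PBS 791. The female groups stood at 0.0503 CPM (0.00610 to 0.182) and 0.0446 CPM (0.00540 to 0.161). In a male fit without the count filter the log2 fold change of KO against WT over both injections was −0.34 (SE 0.700, edgeR adjusted p = 1), and without male WT PBS 791 it turned to 0.78 (SE 0.667, adjusted p = 1), so no genotype difference was detectable at this depth.

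Male WT PBS 791 was also the highest library for Neurod1, the bHLH factor of granule neuron differentiation, which cerebellar granule neurons make as well. Neurod1 stood at 45.2, 20.0 and 21.5 CPM in male WT PBS and at 30.9, 9.13 and 12.1 CPM in male KO PBS. It stood at 18.0, 20.7 and 21.0 CPM in male WT Tau and at 17.5, 16.9 and 17.9 CPM in male KO Tau. The 3 male KO Tau libraries lay below all male WT Tau and all male WT PBS libraries, while both PBS groups overlapped. That was the only gene of the 9 without overlap in these 2 comparisons, where 8.76% and 8.11% of all genes were lower without overlap.

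Genes of cerebellar neurons were also high in male WT PBS 791. Gabra6, a GABA receptor subunit of cerebellar granule neurons, was at 36.8 CPM there and at 0.668 CPM or less in every other library, and Pcp2, a gene of Purkinje cells, was at 7.84 CPM against 0.712 CPM or less. Of the 8 cerebellar genes, 7 were highest in this library, and Barhl1 was highest in female KO Tau 325. Their part in the Neurod1 and Eomes values of this library was not tested. Without this library the log2 fold change of Neurod1 moved from −0.66 to −0.21 for male KO PBS against male WT PBS, from −0.55 to −0.09 for male WT Tau against male WT PBS and from −0.72 to −0.26 for male KO Tau against male WT PBS. Leaving out male KO PBS 751 instead moved the value for male KO PBS against male WT PBS to −1.39, and leaving out male WT PBS 792 moved those against male WT PBS to −0.75 for male WT Tau and −0.91 for male KO Tau. For male KO Tau against male WT Tau it was −0.17 with and without it (SE 0.407 with it, edgeR adjusted p = 0.973).

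**Figure D3:**
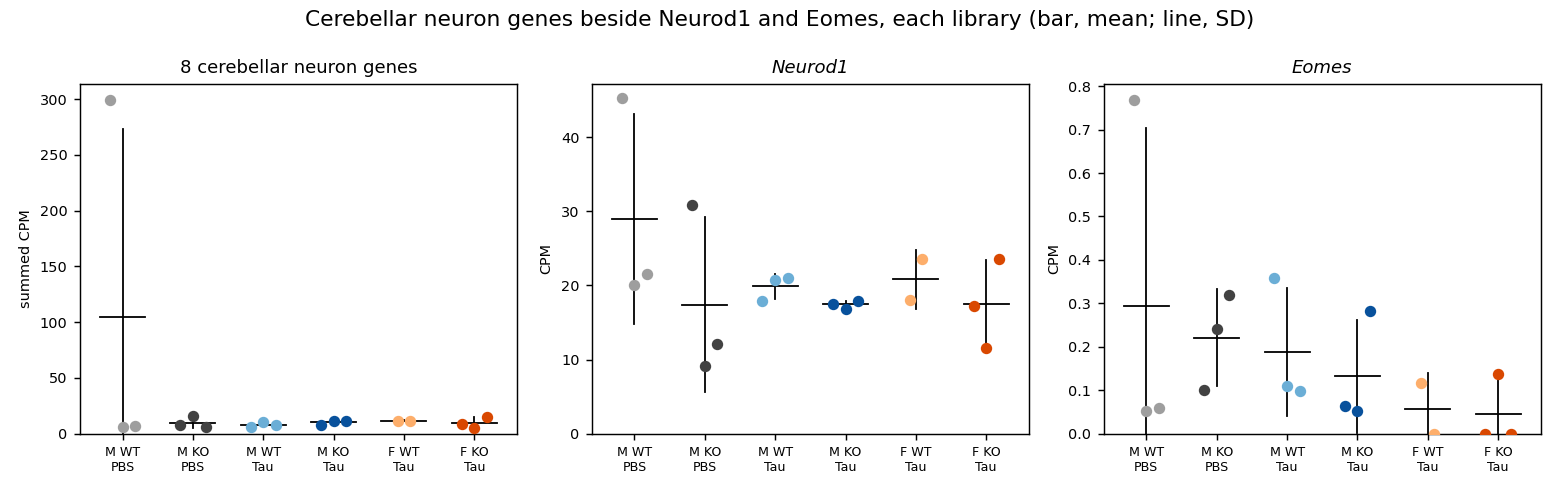
Summed CPM of 8 genes of cerebellar neurons (left) and CPM of Neurod1 (middle) and Eomes (right) on linear y axes from 0, in the 17 libraries by group (x axis); points are libraries, the bar is the group mean and the line the SD. Male WT PBS 791 is the highest point in all 3 panels, at 299, 45.2 and 0.767 CPM.

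Sox11, a transcription factor of committed neuronal precursors and young neurons, did not separate the groups within either sex. It stood at 12.8, 10.1 and 14.6 CPM in male WT PBS, 14.0, 6.41 and 9.15 CPM in male KO PBS, 13.4, 11.1 and 14.4 CPM in male WT Tau and 14.3, 13.2 and 8.19 CPM in male KO Tau. In the female libraries it was 20.8 and 15.2 CPM in WT Tau and 11.9, 9.98 and 24.0 CPM in KO Tau, the last in female KO Tau 325. Both female WT Tau libraries and female KO Tau 325 stood above every male library, a difference that was not tested. KO differed from WT in males over both injections by −0.19 on the log2 scale (SE 0.199, edgeR adjusted p = 0.95), and Tau from PBS by 0.13 (SE 0.198, adjusted p = 0.948).

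Dcx, the doublecortin protein that binds microtubules in migrating young neurons, spread widely within the KO groups. Its level was 17.2, 13.0 and 17.1 CPM in male WT PBS and 9.08, 19.9 and 8.06 CPM in male KO PBS. It was 13.1, 10.2 and 17.2 CPM in male WT Tau and 8.83, 19.5 and 17.4 CPM in male KO Tau. In the female libraries it was 8.86 and 10.1 CPM in WT Tau and 19.5, 9.64 and 10.9 CPM in KO Tau. The male groups all overlapped one another, and so did the female groups. Both female WT Tau libraries lay below every male WT PBS and male WT Tau library, a difference that was not tested. KO differed from WT in males over both injections by −0.05 on the log2 scale (SE 0.255, edgeR adjusted p = 0.989). For male KO PBS against male WT PBS the Dcx value was −0.30 (SE 0.362, edgeR adjusted p = 0.999). Without male KO PBS 752 this value was −0.82, and without male KO PBS 753 it was −0.06. The female log2 fold change was 0.55 (SE 0.382), opposite in sign to that of the cell division genes, and 0.15 without female KO Tau 314.

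Over all comparisons in males, 0 of the 7 tested genes passed an FDR of 0.05 with edgeR, and 2 comparisons and the interaction had 1 gene each at an unadjusted p under 0.05, which was Igfbpl1 each time. In the other 5 comparisons 0 of 7 genes reached an unadjusted p under 0.05, beside 4.71% of all genes for KO Tau against WT Tau, 4.58% for KO against WT over both injections, 7.95% for KO Tau against KO PBS, 5.38% for Tau against PBS over both genotypes and 6.33% for KO Tau against WT PBS. The share of all 15098 genes past the FDR was 0.00662%, which is Acss2 alone, in the comparisons of KO with WT, and 0% for Tau against PBS and the interaction. In KO against WT over both injections, 4 of 7 genes lay above 0, with a median log2 fold change of 0.0106 beside 0.00392 over all genes. In Tau against PBS over both genotypes, 5 of 7 lay above 0, with a median of 0.105 beside −0.0101. DESeq2 and limma voom with sample quality weights also called 0 of these genes in each of the 8 comparisons.

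**Figure D4:**
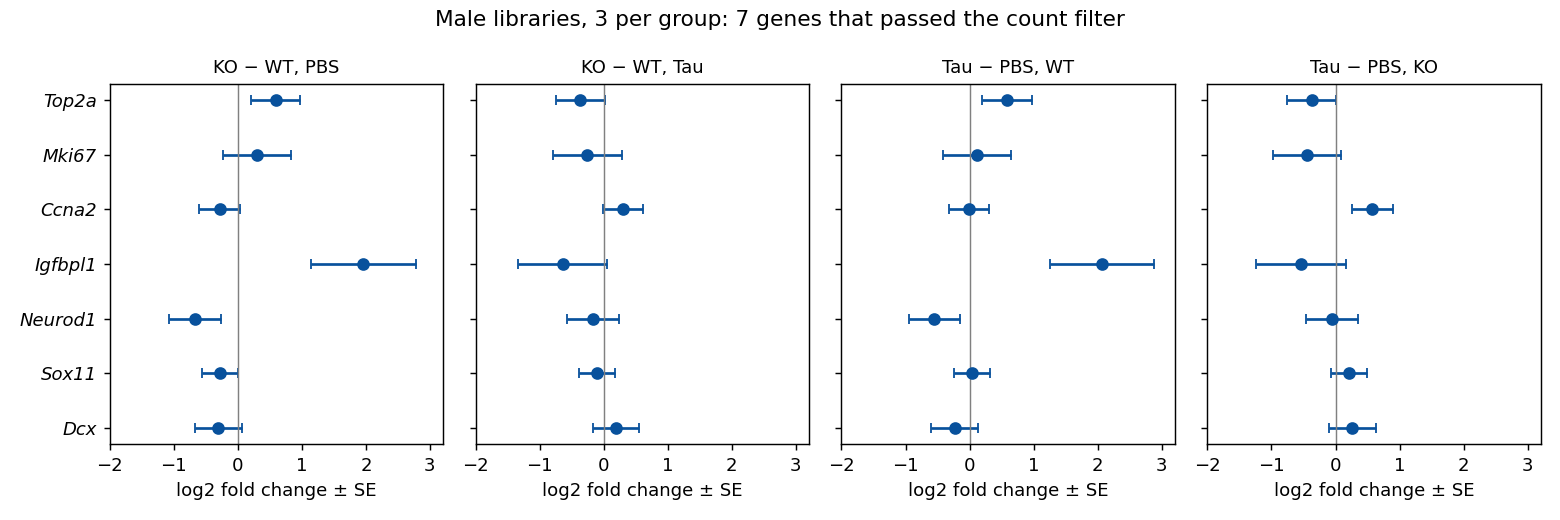
Log2 fold change with its SE (x axis, edgeR) of the 7 genes that passed the count filter (y axis) in 4 comparisons of male groups with 3 libraries each. Igfbpl1 lies at 1.96 for KO against WT under PBS and at 2.06 for Tau against PBS in WT, and the other genes lie between −0.66 and 0.59.

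The lists of the neurogenic lineage gave no call in males either. Of 16 genes of neural stem cells, 14 were tested, and 7 were higher in KO over both injections (median 0.0138), with Lpar1 (0.26, SE 0.152), Vim (0.12, SE 0.157) and Sox9 (0.09, SE 0.123) ahead and Hes5 (−0.24, SE 0.184) and Fabp7 (−0.10, SE 0.155) among those below 0. In Tau against PBS over both genotypes all 14 tested genes of this list lay above 0 (median 0.280, beside −0.0101 over all genes), 4 of them at an unadjusted p under 0.05, beside 5.38% of all genes, and 0 past the FDR with edgeR. In the same comparison 10 of 10 choroid plexus genes (median 2.44, 8 at an unadjusted p under 0.05) and 10 of 10 microglial markers (median 0.153) lay above 0, and their part in these values was not tested. Without male KO Tau 713 the choroid plexus median was 1.02, and 3 of the 10 genes had an unadjusted edgeR p under 0.05. Without male WT PBS 791, male KO PBS 752 or male KO Tau 713 in turn the 14 stem cell genes still lay above 0, with medians of 0.287, 0.174 and 0.362, while in KO against WT the number above 0 was 8, 10 and 12 of 14. Many of these genes, such as Gfap, Vim and Sox9, are also genes of astrocytes. Of 20 genes of immature granule neurons, 19 were tested, 8 were higher in KO (median −0.0921) and 0 passed the FDR. Elavl3 (0.13, SE 0.0574, unadjusted p = 0.0484, edgeR adjusted p = 0.945), Sox4 (0.19, SE 0.117) and Tac2 (0.42, SE 0.430) led the higher genes, and Mex3a (−0.24, SE 0.121), Marcksl1 (−0.39, SE 0.263) and Calb2 (−0.41, SE 0.282) the lower. In the female libraries, given as a description, 15 of 20 immature granule genes were lower in KO Tau (median −0.114, beside −0.0102 over all genes). Their sum was 1940 to 2065 CPM in female WT Tau and 1507 to 1855 CPM in female KO Tau, without overlap, beside 10.3% of single genes lower in that way. Of the stem cell genes, 10 of 15 were lower (median −0.183), and their sums overlapped. Over the 17 libraries the immature granule genes summed to 1507 to 2605 CPM, beside 190 to 705 CPM for the mature granule markers. The part of mature neurons in the immature granule sums was not tested.

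Within groups, the genes were compared with markers of the tissue in the sample. A score, the mean log2 CPM of a marker list, was compared with each gene on deviations from the group means over 17 libraries, with exact permutation of libraries within groups. The p-values are two-sided and were adjusted over 18 relations (9 genes with 2 scores). With the score of mature dentate granule neurons Neurod1 had r = 0.690 (permutation p = 0.0257, adjusted 0.165) and rho = 0.547 (p = 0.0524, adjusted 0.223), and r fell to 0.359 without male KO PBS 751 and 752, so that this relation rests on those libraries. Mki67 had r = 0.630 (permutation p = 0.0287, adjusted 0.165) and rho = 0.637 (p = 0.0201, adjusted 0.181), and r = 0.674 without them. Top2a had r = 0.542 (permutation p = 0.0329, adjusted 0.165) and rho = 0.453 (p = 0.13, adjusted 0.347), and r = 0.583 without them. Dcx went the other way, with r = −0.692 (permutation p = 0.0867, adjusted 0.195) and rho = −0.647 (p = 0.0536, adjusted 0.223), and r = −0.630 without them. In the 12 male libraries alone r was 0.677 for Neurod1, 0.712 for Mki67, 0.480 for Top2a and −0.795 for Dcx. The 5 female libraries were too few for a value of their own. None of the 18 relations held after adjustment over all 17 libraries.

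With the score of subventricular zone neuroblasts, the migrating young neurons of the lateral ventricle wall, Dcx had r = 0.618 (permutation p = 0.0366, adjusted 0.165) and rho = 0.652 (p = 0.0135, adjusted 0.181), and r = 0.548 without female KO Tau 314 and 325. In the 12 male libraries Mki67 had r = −0.906 with this score (exact permutation p = 0.00231, adjusted 0.0416) and rho = −0.853 (p = 0.0054, adjusted 0.0972), and r = −0.804 without male KO PBS 751 and male KO Tau 711, against r = −0.420 over all 17 libraries. The relation of Dcx to neocortical projection neurons (Cux2, Rorb, Rasgrf2 and Fezf2) is a description, since that list was chosen after the data were seen: r was 0.90 over 17 libraries, 0.922 in the 12 male libraries and 0.731 over 17 without male KO PBS 752 and male KO Tau 711. Male KO PBS 752 had both the highest Dcx level, 19.9 CPM, and the highest summed level of these genes, 418 CPM.

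**Figure D5:**
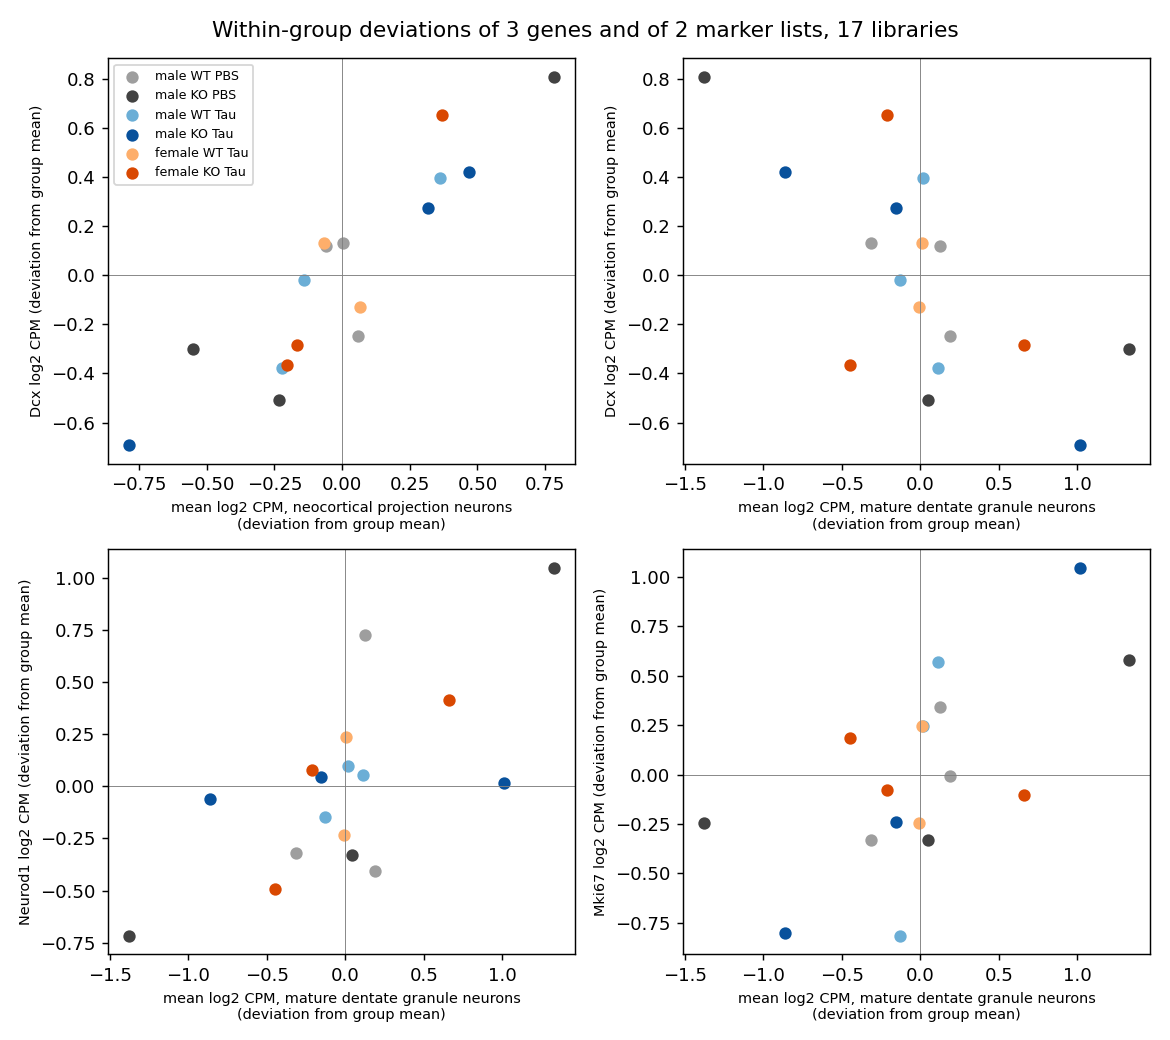
Deviations from the group mean of log2 CPM of Dcx, Neurod1 and Mki67 (y axes) against those of the mean log2 CPM of neocortical projection neuron genes or mature dentate granule neuron genes (x axes) in 17 libraries coloured by group. Dcx rises along the neocortical score (r = 0.90) and falls along the granule score (r = −0.692), and Neurod1 and Mki67 rise along the granule score.

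The genes most like each of the 9 over the 17 libraries, by Pearson's r of log2 CPM among 15594 genes that passed the count filter, are given as a description. Likeness here includes differences between groups, sex and tissue. Top2a was followed by Cenpi (r = 0.810), Mrps6 (0.784) and Alyref (0.769), and on deviations from the group means these fell to 0.677, 0.613 and 0.564. Mki67 was closest to Csf2rb2 (0.835), Csf1 (0.817) and Smarcd2 (0.807), Cdk1 to Fam83d (0.807), Nrros (0.805) and Hist1h4i (0.794), and Ccna2 to Sbno2 (0.912), Eef2kmt (0.861) and Vsir (0.845). Eomes was closest to Usb1 (0.780), Inpp5e (0.750) and Rdh13 (0.715), and Igfbpl1 to Spg20 (0.862), D7Ertd443e (0.814) and Myrf (0.811). Neurod1 was closest to Tiam1 (0.831), Zfp667 (0.782) and Slc39a6 (0.781), Sox11 to Tpd52l1 (0.906), Ankrd6 (0.903) and Synpr (0.880), and Dcx to Mei1 (0.934), Sept11 (0.926) and Fam81a (0.921). Among the 9 genes themselves the highest r on deviations from the group means was that of Neurod1 with Sox11 (0.588), followed by Top2a with Cdk1 (0.556), while Dcx and Igfbpl1 had −0.601.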

How the data were processed

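The authors aligned reads to the mouse genome (GRCm38) with STAR 2.5.2 and assigned them to exons by strand with HTSeq 0.9.1. What they deposited are whole-number read counts for each gene symbol, not normalized. The release of the annotation is not given in the sources used here. CPM were scaled to total counts, and lengths and positions came from the GENCODE annotation of GRCm38. Tests used edgeR 4.0.16 (quasi-likelihood F-test) in R 4.3.3 (TMM, filterByExpr with minimum count 10 and total 15, Benjamini-Hochberg over all genes tested, false discovery rate, FDR, 0.05) in 1 fit of the 12 male libraries (15098 genes). The study's own test was DESeq2 on male mice. Female values came from a fit of the 11 Tau libraries (15419 genes) and carry no test. Log2 CPM used a prior count of 2. The members and lists were chosen with earlier results of these data known. Named genes were the 9 members, Acss2, up to 3 genes higher and 3 lower per list with the smallest p for KO against WT in males, and the 3 genes most like each member. Of the genes in these lists, 2 are not reported here, and 1 of them was left out of the neocortical list. The edgeR step was tested on simulated data in which only genes of higher counts were changed. That test therefore does not show what could be detected for genes near the floor. Alternatives were DESeq2 1.42.0, limma 3.58.1 voom with sample quality weights, RLE factors, no filter, other sets of libraries, the granule score as a covariate, and each library left out. No pair of the 17 libraries was identical. Since nothing ties the libraries to separate litters or days, p-values measure the spread between these libraries.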

Additional observations from a re-analysis of the deposited data

Results flagged for a closer look

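The value of KO against WT for Igfbpl1 in males differed between the injections by the interaction test at an unadjusted p under 0.05: −2.60 on the log2 scale (SE 1.08, unadjusted p = 0.0333, edgeR adjusted p = 0.996). It was 1.96 (SE 0.816) under PBS and −0.64 (SE 0.694) under Tau. The difference did not hold after adjustment over all genes, it rested on 1 to 21 counts per library, and 4.18% of all genes reached an unadjusted p under 0.05 in this comparison. With each library left out in turn it ran from −3.46 to −1.95. No group had more than 3 libraries, so single libraries were not tested for standing apart.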

How the results depend on the processing

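Of the 7 genes tested in males, 0 were called in each of the 8 comparisons under every alternative run (149 values). Among 367 fold changes under other tests, scalings or sets of libraries, 351 kept their direction and 16 turned it, and the lowest adjusted p was 0.237 (Igfbpl1, male KO Tau against male WT Tau, limma voom). No paired analysis was possible because the labels give each library a number of its own.

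The 16 turned values lay between −0.27 and 0.20, and the cause was not tested. With voom they were Ccna2 −0.045 and Mki67 −0.27 for KO against WT over both injections, Neurod1 0.15 and Sox11 −0.10 for male KO Tau against male KO PBS, Sox11 −0.029 for Tau against PBS over both genotypes and −0.15 for the interaction, and Dcx 0.15 for male KO Tau against male WT PBS. With the granule score as a covariate they were Dcx −0.20, Mki67 0.048, Neurod1 0.20 and Sox11 0.088 for male KO Tau against male WT Tau, Neurod1 0.18 for male KO Tau against male KO PBS, and Mki67 0.10 and Sox11 0.093 for male KO Tau against male WT PBS. Ccna2 for male WT Tau against male WT PBS was 0.00088 without the filter and 0.0034 with only the groups compared.

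Leaving out 1 library turned 50 of 672 values. Their ranges were, for KO PBS against WT PBS, Mki67 −0.084 to 0.51. For KO Tau against WT Tau they were Dcx −0.011 to 0.46, Mki67 −1.03 to 0.11 and Sox11 −0.26 to 0.11. For KO against WT over both injections they were Ccna2 −0.13 to 0.11, Dcx −0.31 to 0.078, Mki67 −0.36 to 0.21 and Top2a −0.032 to 0.24. For WT Tau against WT PBS they were Ccna2 −0.090 to 0.10, Mki67 −0.20 to 0.44 and Sox11 −0.085 to 0.17. For KO Tau against KO PBS they were Igfbpl1 −1.40 to 0.11, Neurod1 −0.36 to 0.68 and Sox11 −0.014 to 0.57. For Tau against PBS over both genotypes they were Dcx −0.11 to 0.28, Mki67 −0.55 to 0.032, Neurod1 −0.45 to 0.065 and Top2a −0.038 to 0.23. For the interaction Sox11 ran from −0.054 to 0.53. For KO Tau against WT PBS they were Dcx −0.24 to 0.23, Mki67 −0.91 to 0.23, Sox11 −0.22 to 0.15 and Top2a −0.069 to 0.46. In females, outside this count, leaving out 1 of 5 libraries turned 5 values, with ranges of Ccna2 −0.42 to 0.12, Neurod1 −0.44 to 0.025 and Sox11 −0.62 to 0.033.

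Over all genes, edgeR called 1 gene in each comparison of KO with WT and 0 in Tau against PBS and the interaction. DESeq2 called 2 in KO PBS against WT PBS, 5 in KO Tau against WT Tau, 10 in KO against WT over both injections, 37 in KO Tau against KO PBS, 1 in Tau against PBS over both genotypes and 15 in KO Tau against WT PBS. Voom called 2 in KO Tau against WT Tau, 2 in KO against WT over both injections and 11 in KO Tau against WT PBS, and the fit of all 17 libraries called 3 in KO Tau against WT PBS. At 0 to 51 counts per library, Ccna2, Cdk1, Eomes, Igfbpl1, Mki67 and Top2a allow only large differences to be seen.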
